A study of Caenorhabditis elegans with 6 samples.

Results

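The genes described here encode the major sperm proteins and other products of sperm formation in Caenorhabditis elegans. A gene was a member when its symbol was msp-, spe-, fer-, ssp-, ssq- or nspd- followed by a number, or was gsp-3 or gsp-4, and when at least 1 probe set of the array carried that symbol and no other. These were 73 of the 17118 genes that the array names singly, namely 23 msp, 29 spe, 1 fer, 8 ssp, 4 ssq, 6 nspd and 2 gsp genes. For each gene the probe set with the highest mean over the 6 arrays was used.

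C. elegans hermaphrodites make their own sperm in the last larval stage and then switch to making oocytes. Their sperm have no flagellum and crawl with the help of the major sperm protein (MSP), which the many msp genes encode as nearly identical copies. MSP is packed into fibrous bodies beside membranous organelles while the sperm form, and after release it also acts as the signal that starts oocyte maturation and contraction of the gonadal sheath. The spe genes (defective in spermatogenesis) and fer genes (defective in fertilization) were found as sterile mutants, and they act at steps that run from the sperm gene program to the meeting with the egg.

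Whole worms of the wild-type strain N2 were used, about 2000 worms pooled in each dish, with 1 RNA sample and 1 array per dish. They were L3 larvae at the start, matched in age and kept at 20 °C. The Au-NP group (3 dishes) received 5.9 mg/L of citrate-coated gold nanoparticles, 4 nm in size, for 12 h in 50% K-medium, a dilute salt solution, and then the medium without particles for another 12 h. The control group (3 dishes) is named only as control, and RNA was collected at 24 h. The labels do not say that dishes came from separate cultures, so p-values measure the spread between dishes, which may be technical. Levels are RMA signals on the log2 scale, where 1 unit is a 2-fold change. In whole worms, fewer sperm cells and less RNA per cell cannot be told apart. Higher and lower refer to the array labels. For the abu and pqn genes, which are not described here, that direction is opposite to the published account of this experiment as remembered, which was not checked. If the labels were exchanged, every higher, lower, rose and fell between the groups below would turn round.

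Au-NP replicate 3 differed from the other Au-NP dishes in the sperm genes, so values are given for it and for the other 2 Au-NP arrays as well as for all 3. The array medians lay between 7.03 and 7.09, and the median deviation of all probe sets from the control mean was 0.0438, 0.0158 and 0.0356 in Au-NP replicates 1, 2 and 3. Over the 73 sperm genes the same median was 0.246, 0.352 and -0.556. Within the control group, replicate 1 was the lowest control for 63 of the 73 genes (86.3%), against 41.6% of all probe sets. The sperm genes lay more than 0.5 below the controls for 38 of 73 genes in Au-NP replicate 3 (6.14% of all probe sets), and more than 0.5 above them for 30 of 73 in Au-NP replicate 2 (5.74%). Control replicate 1 lay more than 0.5 below the other 2 controls for 18 of 73 (0.825%). Sperm genes thus varied between control dishes as well, with a median SD of 0.264 over the 3 controls against 0.110 for all probe sets. Over the 3 Au-NP arrays the median SD was 0.511 against 0.114.

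**Figure D1:**
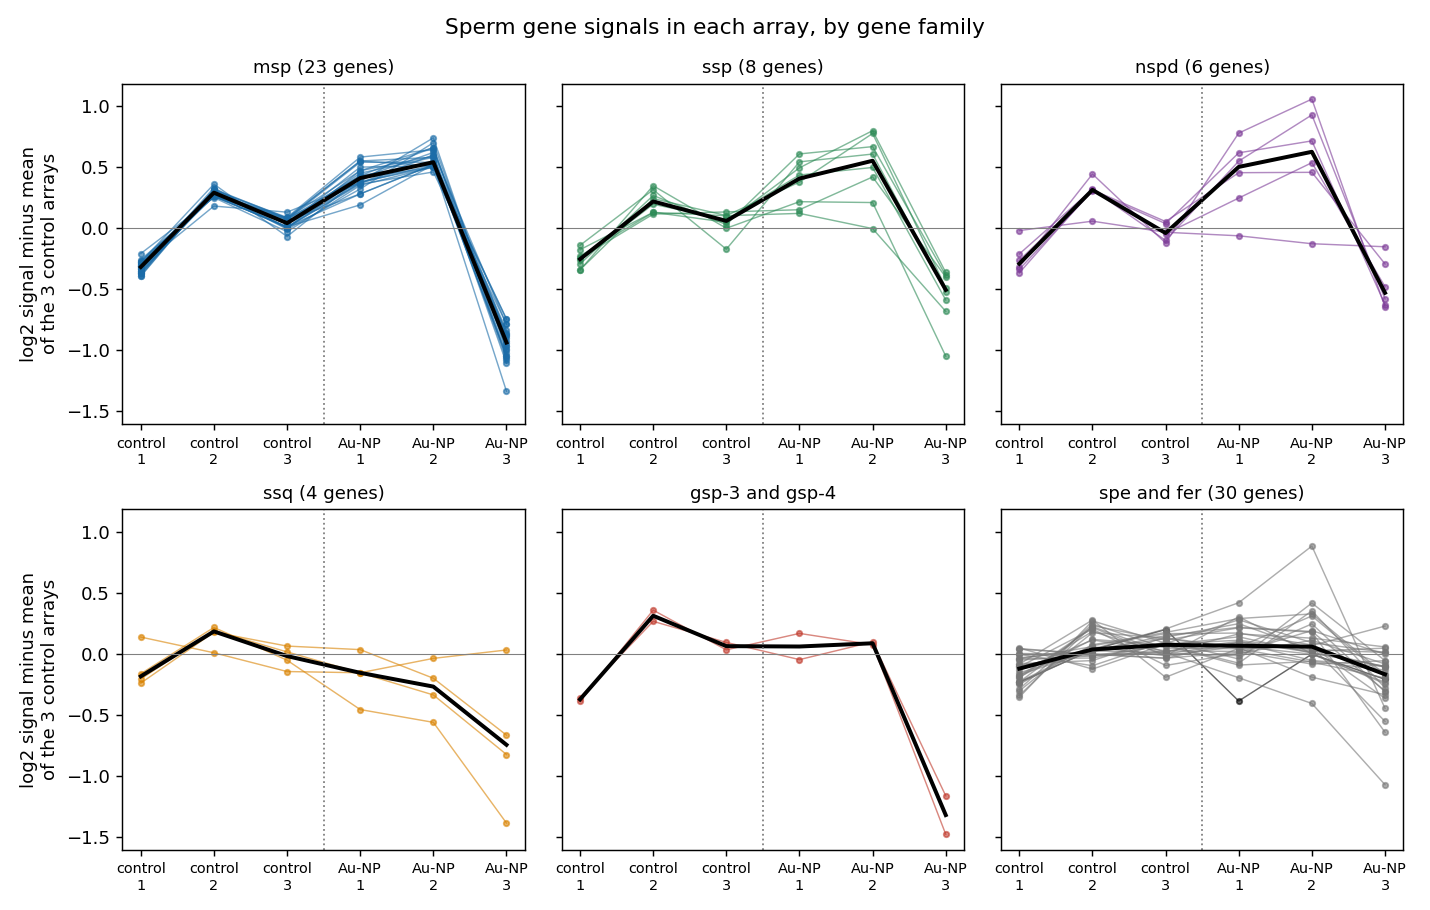
Log2 signal of each sperm gene minus the mean of the 3 control arrays (y axis) in each of the 6 arrays (x axis), in a panel per gene family, with spe and fer together. Thin lines join the values of 1 gene, the thick line is the panel median, and replicates have no order. The 23 msp genes lie above the control mean in Au-NP replicates 1 and 2 and at -0.75 to -1.34 in Au-NP replicate 3.

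With 3 arrays against 3, no sperm gene passed the test between the groups. By limma with Benjamini-Hochberg adjustment over all 22548 probe sets, 0 of 73 genes were higher and 0 were lower at an adjusted p of 0.05, where 6.24% of all probe sets were higher and 5.68% were lower. At an unadjusted limma p under 0.05 there were 3 genes, all lower, namely ssq-2, ssq-3 and spe-18. That is 4.11% of the sperm genes, where 26.5% of all probe sets had such a p. The median log2 difference over the 73 genes was 0.01, against 0.03 over all probe sets, with 43 positive and 30 negative values from -0.80 to 0.40. These values do not show that the groups were alike, because the 95% interval of the difference reached a median of 0.588 log2 units to either side. The interval lay within 1 log2 unit of 0 for 58 of the 73 genes, for 17 of 23 msp genes and for 28 of 30 spe and fer genes.

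**Figure D2:**
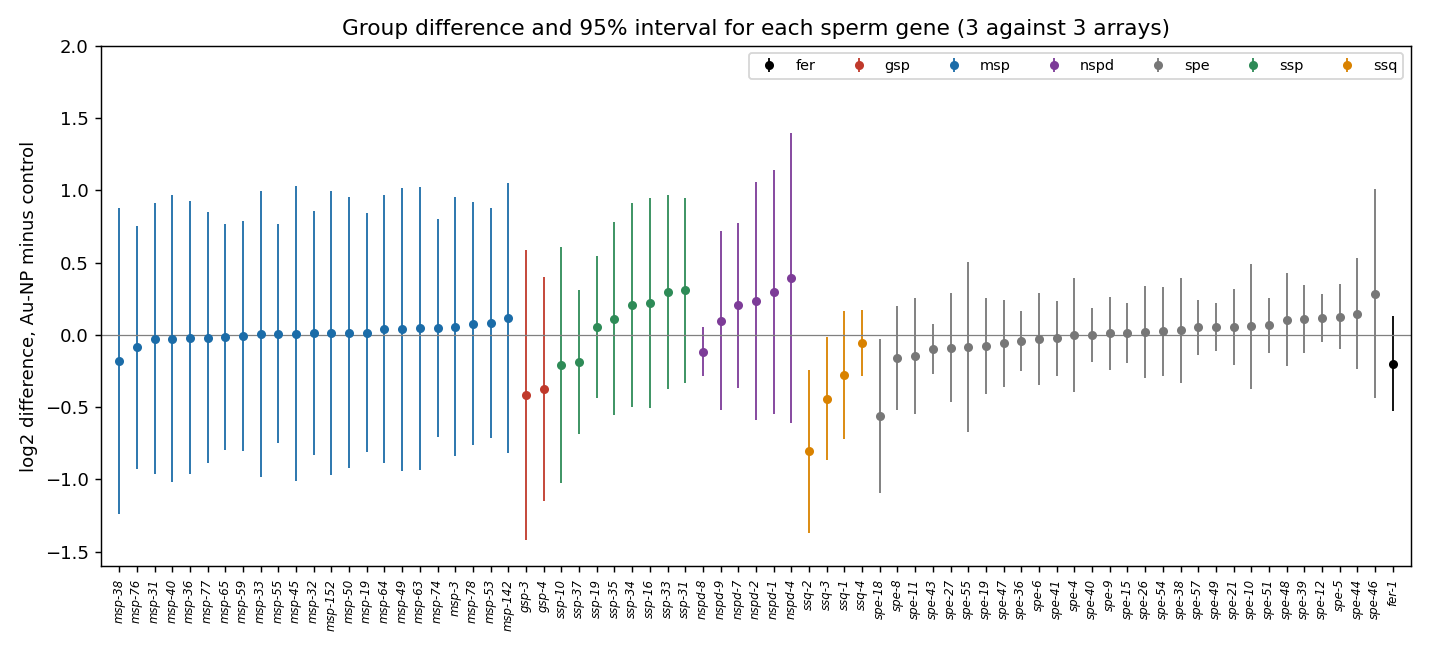
Log2 difference between Au-NP and control arrays (y axis, 3 against 3 arrays) for each of the 73 sperm genes (x axis), with the 95% interval of the limma fit as bars and colours for the gene families. The msp points lie between -0.18 and 0.12 with intervals near 1 log2 unit to either side, and the intervals of ssq-2, ssq-3 and spe-18 lie wholly below 0.

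The msp genes varied widely between arrays. Their group differences lay between -0.18 and 0.12 with a median of 0.01, while Au-NP replicate 3 lay 2.78-fold below the average of the other 2 Au-NP arrays at the median. Against the control mean, the average of Au-NP replicates 1 and 2 was higher for all 23 genes, by a median of 0.51 log2 units (1.42-fold, range 0.36 to 0.61), and Au-NP replicate 3 was lower for all 23, by a median value of -0.94 (1.92-fold, range -1.34 to -0.75).

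The gene msp-38 had the smallest p of the family. Its signal was 11.48, 12.06 and 11.86 in control replicates 1 to 3 and 12.08, 12.32 and 10.46 in Au-NP replicates 1 to 3. Au-NP replicates 1 and 2 thus lay above every control and Au-NP replicate 3 below every control. The group difference of msp-38 was -0.18 ± 0.45 (SE, n = 3 per group, 95% interval -1.24 to 0.88, limma adjusted p = 0.871). For msp-142, with the largest positive difference of the family, the controls read 9.47, 10.18 and 9.96 and the Au-NP arrays 10.45, 10.51 and 8.998. The order of the arrays was the same as for msp-38, and the difference was 0.12 ± 0.40 (SE, limma adjusted p = 0.906). The signal of msp-53 was 12.71, 13.31 and 13.05 in the controls and 13.52, 13.53 and 12.27 in the Au-NP arrays, with a difference of 0.09 ± 0.34 (SE, limma adjusted p = 0.921).

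The family member with the highest mean signal, msp-55, read 12.85, 13.38 and 13.13 in the controls and 13.48, 13.58 and 12.33 in the Au-NP arrays. The one with the lowest, msp-32, read 9.47, 10.05 and 9.76 and then 10.13, 10.31 and 8.87. These levels belong to different probe sets, so they do not rank the genes by abundance, but the order of the arrays within each gene can be compared. In all 23 msp genes Au-NP replicate 3 was the lowest of the 6 arrays, and in 22 of 23 both other Au-NP arrays were above every control. The exception was msp-76, named after its values were seen, with 11.75 in Au-NP replicate 1 against 11.82 in control replicate 2.

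**Figure D3:**
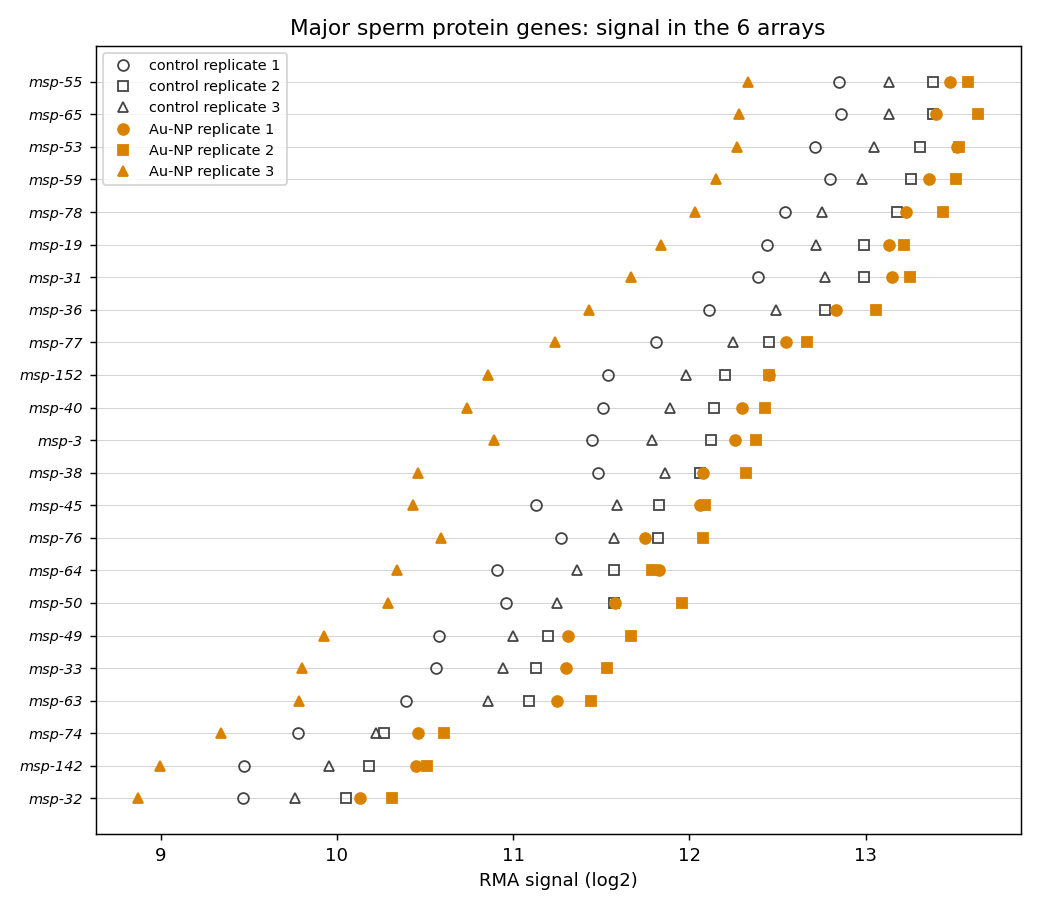
RMA signal (x axis, log2) of the 23 msp genes (y axis, ordered by mean signal), with open symbols for the 3 control arrays and filled symbols for the 3 Au-NP arrays. In each row Au-NP replicate 3 is the leftmost point and Au-NP replicate 2 or 1 the rightmost, and levels of different probe sets cannot be ranked against each other.

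The 23 msp readings are not 23 independent measurements. The chosen probe sets of all 23 carry a suffix that marks possible cross-hybridization between related transcripts, and 21 of the 23 genes have the same gene length, 384 bp, in the reference gene table. A further 15 probe sets carried several symbols with a member among them, and 8 of these included msp genes. None of the 15 passed the test in either direction, and Au-NP replicate 3 was the lowest array in all 15. In the most widely shared one, annotated to 17 genes, the signal was 12.20, 12.69 and 12.37 in the controls and 12.61, 12.95 and 11.51 in the Au-NP arrays. Of the 23 msp genes only msp-32 had a second probe set of its own, with a suffix that does not mark cross-hybridization. That probe set read 6.11, 6.22 and 6.06 in the controls and 6.38, 6.00 and 5.87 in the Au-NP arrays. The spread was narrower than in the chosen one, again with Au-NP replicate 3 lowest. Au-NP replicate 2 also lay below every control, whereas in the chosen probe set it lay above every control.

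The protein phosphatase genes gsp-3 and gsp-4 encode type 1 catalytic subunits needed for sperm meiosis and sperm motility. Their signals lay within the control range in Au-NP replicates 1 and 2 and below it in Au-NP replicate 3, and both probe sets carry the suffix for possible cross-hybridization. The signal of gsp-3 was 8.56, 9.31 and 8.98 in the controls and 9.12, 9.03 and 7.47 in the Au-NP arrays. That of gsp-4 was 8.02, 8.65 and 8.48 in the controls and 8.33, 8.48 and 7.22 in the Au-NP arrays. Au-NP replicates 1 and 2 lay within the control range for both genes, unlike for 22 of 23 msp genes. The group differences were -0.41 ± 0.43 for gsp-3 and -0.37 ± 0.33 for gsp-4 (SE, limma adjusted p = 0.633 and 0.564). In Au-NP replicate 3 alone the deviation from the control mean was -1.48 for gsp-3, the largest among the 73 genes in that array, and -1.17 for gsp-4.

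The small sperm-specific families ssp (class P) and nspd (nematode-specific peptides, group D) included genes with the same order of arrays as the msp genes. Among 8 ssp genes 6 had both Au-NP replicates 1 and 2 above every control, and in 8 of 8 Au-NP replicate 3 was the lowest array. Among 6 nspd genes the counts were 4 and 5, and 3 of 6 had both features. The gene ssp-31 read 6.55, 6.86 and 6.77 in the controls and 7.22, 7.53 and 6.36 in the Au-NP arrays. The gene nspd-4 read 8.25, 9.02 and 8.45 in the controls and 9.35, 9.63 and 7.93 in the Au-NP arrays, and its average of 0.92 above the control mean in Au-NP replicates 1 and 2 was the highest of the 73 genes. Group differences were 0.31 ± 0.27 for ssp-31 and 0.40 ± 0.43 for nspd-4 (SE, limma adjusted p = 0.560 and 0.649).

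Other members of these families departed from that order. The gene ssp-10, with the highest mean signal and the largest negative difference among the ssp genes, read 8.49, 9.18 and 8.83 in the controls and 9.05, 9.05 and 7.78 in the Au-NP arrays, so that only Au-NP replicate 3 left the control range. For ssp-37 the Au-NP arrays read 7.77, 7.64 and 6.96 against 7.42, 7.78 and 7.75 in the controls. The nspd-8 signal was low throughout, at 4.75, 4.82 and 4.73 in the controls and 4.70, 4.64 and 4.61 in the Au-NP arrays. Its groups did not overlap, by a small amount, with a difference of -0.12 ± 0.07 (SE, limma adjusted p = 0.377). The nspd-7 signal in Au-NP replicate 3 was 7.40, above the 7.32 of control replicate 1. Of the 15 probe sets with several symbols, 4 carry nspd symbols, and 4 of the 6 nspd and 4 of the 8 ssp probe sets carry the cross-hybridization suffix.

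The ssq genes (sperm-specific family, class Q) were not above the control mean in the average of Au-NP replicates 1 and 2 for any of the 4 genes. The signal of ssq-2 was 7.81, 8.19 and 7.93 in the controls and 7.52, 7.42 and 6.59 in the Au-NP arrays. All 3 Au-NP arrays lay below all 3 controls. The group difference of ssq-2 was -0.80 ± 0.24 (SE, n = 3 per group, 95% interval -1.37 to -0.24, 1.75-fold) and did not pass, with a limma adjusted p of 0.0747, the smallest of the 73 genes. Without Au-NP replicate 3 the difference was -0.51 and passed (limma adjusted p = 0.0236), while over all 17 alternatives the limma adjusted p of ssq-2 ranged from 0.00697 to 0.211.

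The 3 other ssq genes gave values of the same sign with smaller sizes. For ssq-3 the controls read 7.81, 8.21 and 8.03 and the Au-NP arrays 7.86, 7.68 and 7.19, with a difference of -0.44 ± 0.18 (SE, limma adjusted p = 0.175). The ssq-1 signal was 8.17, 8.59 and 8.47 in the controls and 8.45, 8.21 and 7.74 in the Au-NP arrays (difference -0.28 ± 0.19, limma adjusted p = 0.427). Au-NP replicate 1 lay within the control range for both genes, and Au-NP replicate 2 did for ssq-1. The ssq-4 signal stayed between 4.65 and 4.94 in all 6 arrays. Probe sets of the same ssq gene differed from one another, in size for ssq-1 and ssq-2 and also in sign for ssq-3. A second ssq-2 probe set had -0.05 ± 0.08 (SE, limma adjusted p = 0.766), a second ssq-1 probe set had -0.07 ± 0.11, and the other ssq-3 probe sets had -0.51 ± 0.24 and 0.05 ± 0.10 (SE). A probe set shared by ssq-3 and ssq-4 had -0.41 ± 0.14 (SE, limma adjusted p = 0.115).

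**Figure D4:**
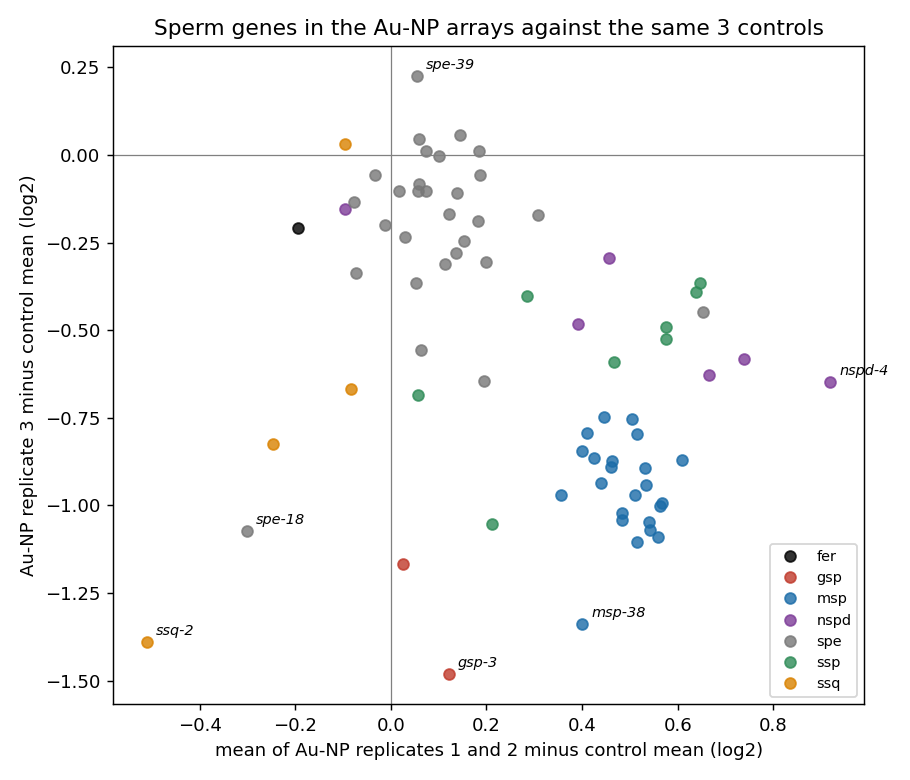
Log2 difference from the control mean of Au-NP replicates 1 and 2 averaged (x axis) and of Au-NP replicate 3 (y axis), 1 point per sperm gene, coloured by family. Both axes use the same 3 control arrays, so the position along them is not independent, and the msp points lie between 0.36 and 0.61 on the x axis and between -1.34 and -0.75 on the y axis while ssq-2 lies at -0.51 and -1.39.

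Among the spe and fer genes, the differences between arrays were smaller. Of these 30 genes 12 had a mean signal under 5.5 on a scale whose lowest value was 3.44, and it was not decided which of them lay above background. The median deviation over the 30 genes was 0.07, 0.06 and -0.17 in Au-NP replicates 1, 2 and 3, and Au-NP replicate 3 was the lowest of the 6 arrays for 15 of 30.

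Genes grouped for regulation and for meiotic or cytoskeletal roles had group differences from 0.01 to 0.15, none of which passed the test. In Au-NP replicate 3 alone, 3 of these 5 genes lay below the control mean. The signal of spe-44, which encodes a regulator of sperm gene transcription, was 6.94, 7.27 and 7.37 in the controls and 7.48, 7.52 and 7.02 in the Au-NP arrays. Au-NP replicates 1 and 2 lay above the controls and Au-NP replicate 3 within their range, with a difference of 0.15 ± 0.16 (SE, limma adjusted p = 0.660). The gene spe-39, which acts in vesicle traffic in many tissues, read 8.59, 8.78 and 8.87 in the controls and 8.78, 8.81 and 8.97 in the Au-NP arrays, and was the only one of the 73 genes whose highest array was Au-NP replicate 3. The other 3 genes of this group, spe-5 (a subunit of the vacuolar proton pump), spe-15 (a myosin of class VI) and spe-26 (a kelch-like protein), had differences of 0.13, 0.01 and 0.02.

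The genes for fibrous bodies and membranous organelles included spe-18, whose product is needed to assemble MSP into fibrous bodies. Its signal was 7.78, 8.24 and 8.03 in the controls and 7.82, 7.61 and 6.94 in the Au-NP arrays. Au-NP replicate 3 was below every control, Au-NP replicate 2 was too, and Au-NP replicate 1 was not. The difference of spe-18 was -0.56 ± 0.23 (SE, 95% interval -1.09 to -0.03, limma adjusted p = 0.167). The presenilin gene spe-4 read 6.95, 7.26 and 7.21 in the controls and 7.06, 7.49 and 6.86 in the Au-NP arrays. The palmitoyltransferase gene spe-10 had 0.06 ± 0.19 and the casein kinase gene spe-6 had -0.03 ± 0.14 (SE, limma adjusted p = 0.897 and 0.937).

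In the group for sperm activation, the step at which a round spermatid forms its pseudopod, spe-46 had the msp order of arrays. It read 7.18, 7.46 and 7.62 in the controls and 7.84, 8.31 and 6.97 in the Au-NP arrays, with a difference of 0.29 ± 0.31 (SE, limma adjusted p = 0.651). The other 6 measured genes of this group stayed closer to the controls. They were spe-8 (a tyrosine kinase gene) at -0.16, spe-12 at 0.12, spe-19 at -0.08, spe-27 at -0.09, spe-43 at -0.10 and spe-47 (an MSP-domain gene) at -0.06. For spe-12 the Au-NP arrays lay above the controls and for spe-43 below them, by small amounts (limma adjusted p = 0.375 and 0.482).

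Genes for fusion of the membranous organelles and for the meeting of sperm and egg showed little difference. The ferlin gene fer-1 read 5.95, 6.21 and 6.38 in the controls and 5.79, 6.18 and 5.97 in the Au-NP arrays (difference -0.20 ± 0.14, limma adjusted p = 0.443). Of the surface and secreted proteins, spe-9 (epidermal growth factor repeats) had a difference of 0.01 ± 0.11, spe-41 (a cation channel of the TRPC family) -0.02 ± 0.11 and spe-38 (a protein with several membrane spans) 0.03 ± 0.16. The genes spe-36, spe-49 and spe-51 lay between -0.04 and 0.07. Of these 6 genes for the meeting of sperm and egg, 4 had a mean signal under 5.5. It was not decided whether those lay above background. The signal of spe-11, a sperm product that the embryo needs, was 5.45, 5.28 and 5.48 in the controls and 5.47, 5.46 and 4.85 in the Au-NP arrays, with only Au-NP replicate 3 outside the control range. The remaining genes, spe-21, spe-40, spe-48, spe-54, spe-55 and spe-57, which the rule for names does not cover, had differences between -0.08 and 0.11.

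Counts of genes past the test changed when the Au-NP arrays were taken apart. With Au-NP replicates 1 and 2 against the 3 controls, 10 of 73 sperm genes (13.7%) were higher and 1 was lower by limma at an adjusted p of 0.05, against 9.08% and 8.66% of all probe sets. The 10 higher genes were 4 ssp genes (ssp-31, ssp-33, ssp-34 and ssp-35), 3 nspd genes (nspd-1, nspd-2 and nspd-4), msp-33, msp-142 and spe-46, and the lower one was ssq-2. The largest of these differences was 0.92 ± 0.20 for nspd-4 and the smallest limma adjusted p was 0.0112 for ssp-31, at 0.65 ± 0.13 (SE). The msp genes msp-33 and msp-142 were close to the threshold (limma adjusted p = 0.0498 and 0.0493). The share of higher genes was not far from that of all probe sets and is read as no result about the sperm genes.

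With Au-NP replicate 3 alone against the 3 controls, 0 of 73 genes were higher and 11 (15.1%) were lower, against 0.656% and 3.30% of all probe sets. This fit has 1 array on the Au-NP side, which is assumed to vary as the controls do. Over all 3 Au-NP arrays, replicate 3 among them, the median SD of the msp genes was 0.853, against 0.309 over the controls. The SEs and adjusted p-values of this fit may therefore be too small. The 11 genes were 6 msp genes (msp-31, msp-33, msp-38, msp-40, msp-59 and msp-76), gsp-3, gsp-4, ssq-2, ssq-3 and spe-18. Here ssq-2 had -1.39 ± 0.17 (SE, limma adjusted p = 0.00697), msp-38 had -1.34 ± 0.22 (0.0204) and spe-18 had -1.07 ± 0.18 (0.0241). Some of the genes in these lists of 10 and 11 were named after their values were seen. Of the genes in both counts, msp-33 was higher in the first fit and lower in the second, and ssq-2 was lower in both. The fits share the control arrays, and Au-NP replicate 3 was singled out after the arrays had been compared. Of the genes that were lower in the second fit, only ssq-2 had a chosen probe set without the suffix for possible cross-hybridization. The share of lower genes there is therefore not a share of independent measurements. The second ssq-2 probe set, also without that suffix, differed little from the control mean. Its deviation was -0.036 in Au-NP replicate 3 and -0.055 in the average of Au-NP replicates 1 and 2.

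Without reference to any threshold, Au-NP replicate 3 was the lowest of the 6 arrays for 56 of 73 sperm genes (76.7%) against 16.0% of all probe sets. Au-NP replicates 1 and 2 were above every control for 37 of 73 (50.7%) against 26.9%. Both held for 33 of 73 (45.2%) against 2.55%, and 22 of these 33 were msp genes, whose probe sets share sequence with one another. Over the 50 members other than msp these counts were 33 (66%), 15 (30%) and 11 (22%). The second of them is near the 26.9% of all probe sets and is no result about those members. Au-NP replicate 3 was singled out after the arrays had been compared. The counts that rest on it describe the order of arrays and do not test it. Groups of 3 and 3 arrays that did not overlap were found for 1 gene that was higher (spe-12) and 3 that were lower (ssq-2, nspd-8 and spe-43), where 19.2% of all probe sets were separate and higher and 11.6% separate and lower.

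Of 17 further symbols listed for sperm formation or function, 14 were matched to a probe set, and of these genes 1 rose and 1 fell. Each is 7.14% of the list, near the 6.24% and 5.68% of all probe sets, so the counts are no result about the list. The gene cpb-1, which encodes an RNA-binding protein needed for spermatogenesis, fell by 0.52 ± 0.13 (SE, limma adjusted p = 0.0432), with 7.89, 8.18 and 7.99 in the controls and 7.62, 7.64 and 7.25 in the Au-NP arrays. The call of cpb-1 was kept without Au-NP replicate 3 (limma adjusted p = 0.0365) and lost without each of the other 5 arrays (0.0669 to 0.134). The gene swm-1, whose product holds back early sperm activation, rose by 0.30 ± 0.08 (SE, limma adjusted p = 0.0448) and lost its call without any 1 array (0.0641 to 0.139). The sperm chromatin gene spch-1 and the sperm histone gene htas-1, which like alg-3 were named after their values were seen, had the msp order of arrays, with 8.20, 8.84 and 8.68 against 8.89, 9.03 and 7.64 for spch-1. The Argonaute genes alg-3 and alg-4, which act in sperm formation, had -0.42 and -0.44 (limma adjusted p = 0.361 and 0.194). In the unmatched symbols of the list, trp-3 is another name of spe-41, which is a member.

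Genes that choose between sperm and oocyte fate, and genes that receive the MSP signal, had members that were lower in the Au-NP arrays. Beside the 5.68% of all probe sets that fell, 4 of 22 sex determination and fate genes (18.2%) fell and 0 rose, namely the transcription factor gene tra-1 (-0.92 ± 0.10), nos-3 (-1.21 ± 0.14), the RNA-binding translational repressor gene gld-1 (-1.71 ± 0.27) and fog-1 (-0.49 ± 0.09), which sperm fate requires (SE, limma adjusted p = 0.00500, 0.00571, 0.0113 and 0.0161). Here fog-1 was named after its value was seen, and its call was lost without control replicates 2 or 3 or Au-NP replicate 2. Of 12 genes for MSP signalling to oocytes and sheath cells 2 (16.7%) fell and 0 rose, the stimulatory G protein gene gsa-1 (-2.10 ± 0.14, limma adjusted p = 0.00170) and the Eph receptor gene vab-1 (-0.46 ± 0.09, limma adjusted p = 0.0184), an MSP receptor. The call of vab-1 was kept without Au-NP replicates 1 or 3 and lost without each of the other 4 arrays. The median log2 difference was -0.04 over the fate genes and -0.20 over the signalling genes. The calls of gsa-1, tra-1 and nos-3 were kept in 6 of 6 fits that left out 1 array, and that of gld-1 was lost without control replicate 3 or Au-NP replicate 2. The fate list had 2 lower genes without either of those 2 arrays. The signalling list had 1 lower gene without any control array or Au-NP replicate 2, and 3 without Au-NP replicate 1.

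Markers of other cells and stages also differed between the arrays. The counts below stand beside 5.68% of all probe sets that fell and 6.24% that rose. In the oocyte and eggshell list 5 of 21 genes (23.8%) fell and 0 rose, led by lin-41, cpg-1 and cbd-1 (-1.08, -1.596 and -1.47), with a median of -0.22 over the list, and Au-NP replicate 3 was the lowest array for 17 of 21. The median deviation of this list from the controls was -0.04, -0.20 and -0.58 in Au-NP replicates 1, 2 and 3, and control replicate 1 was the lowest control for 20 of 21 genes. In the germ-line list 8 of 24 genes (33.3%) fell and 0 rose, with medians of -0.14, -0.34 and -0.37 in the Au-NP arrays. Of 5 yolk protein genes 2 (40.0%) fell and 0 rose, with medians of -0.51, -0.64 and -0.82. The moulting and larval stage list had a different order, with medians of -0.64 and -0.43 in Au-NP replicates 1 and 2 and 0.03 in Au-NP replicate 3, and 5 of 24 genes (20.8%) fell and 0 rose. The calls of lin-41 and cpg-1 were kept in 6 of 6 fits that left out 1 array, and that of cbd-1 was lost without control replicates 2 or 3 or Au-NP replicate 2. The share of all probe sets that were lower also changed, to 8.66% when Au-NP replicate 3 was left out, to 1.82% for Au-NP replicate 2 and to between 2.36% and 2.84% for 1 control array. Without Au-NP replicate 3 the fallen genes numbered 13 in the moulting list, 9 in the germ-line list and 6 in the oocyte list. The counts were 2 in each of these lists without Au-NP replicate 2. Without 1 control array they were 2 to 4 in the moulting list, 3 to 5 in the germ-line list and 2 to 3 in the oocyte list. The yolk list had 3 without Au-NP replicate 3 and 1 without any control array or Au-NP replicate 2. The gene lin-41 is in both the oocyte and the moulting list. The part of oocyte number, stage and dish in the sperm gene values was not tested.

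**Figure D5:**
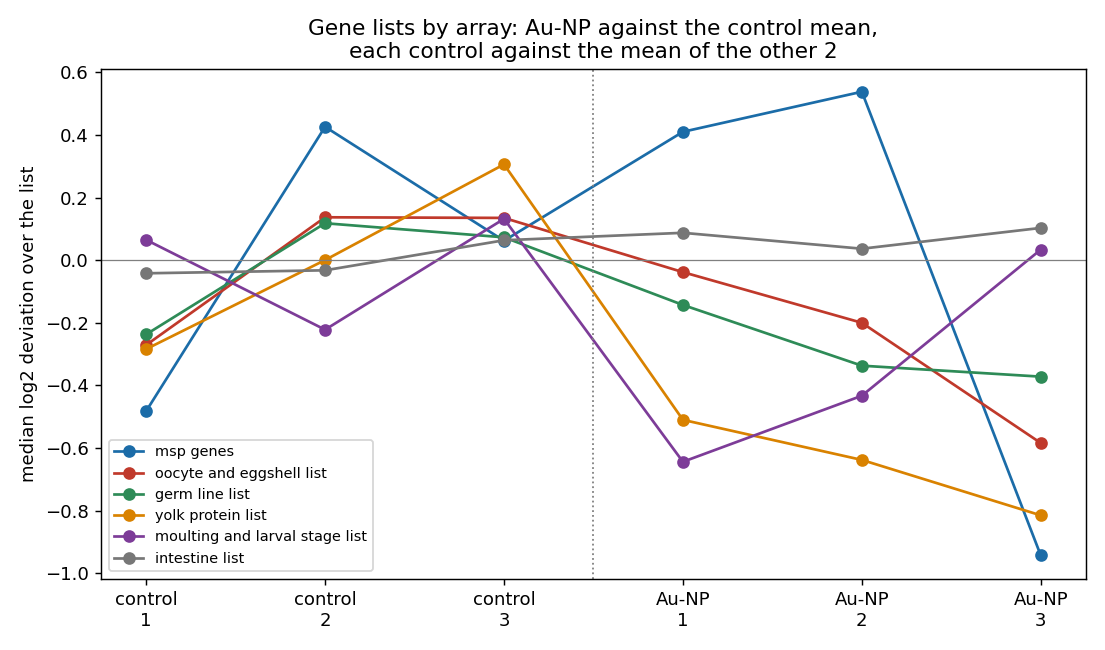
Median log2 deviation over each gene list (y axis) in each array (x axis), Au-NP arrays against the mean of the 3 controls and each control against the mean of the other 2 controls, with lines that join the values of 1 list and replicates in no order. The msp median is 0.41 and 0.54 in Au-NP replicates 1 and 2 and -0.94 in Au-NP replicate 3, while the moulting list is at -0.64, -0.43 and 0.03.

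Lists for somatic tissues did not share the msp order of arrays. Counts of 1 among 12 genes (8.33%) are near the 6.24% and 5.68% of all probe sets and are no result about a list. Of 12 genes in each list, the intestine list had 2 higher (16.7%) and 1 lower, and neurons had 1 and 1. Body-wall muscle had 0 higher and 4 lower (33.3%), the hypodermis 0 and 1 and the somatic gonad and spermatheca 0 and 1. Leaving out 1 array gave 0 to 2 higher and 0 to 2 lower intestine genes, 0 to 1 neuron genes in each direction, 1 to 2 lower somatic gonad genes (2 without Au-NP replicate 3), 2 to 4 lower muscle genes (2 without any control array or Au-NP replicate 2) and 0 to 4 lower hypodermis genes (4 without Au-NP replicate 3). The median deviations in Au-NP replicates 1, 2 and 3 were 0.09, 0.04 and 0.10 for the intestine list and -0.06, -0.07 and -0.01 for the somatic gonad list. They were -0.21, -0.26 and -0.29 for body-wall muscle, -0.115, -0.0493 and 0.262 for the hypodermis and 0.14, 0.09 and 0.16 for neurons. Au-NP replicate 3 was the lowest array for 1 of 12 genes in each of the intestine, neuron and somatic gonad lists. The count was 4 for body-wall muscle and 0 for the hypodermis. The hypodermis list is not separate from the others. It shares dpy-7, rol-6, col-19, bli-1 and let-413 with the moulting list, and elt-1 with the list of other spermatogenesis genes.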

How the data were processed

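The deposited table holds log2 signals of 6 arrays. The submitters' processing notes list RMA and Partek 6.4, the latter with no role. The table itself names no scale, and its values from 3.44 to 15.2 fit log2. RMA normalizes the arrays together, so levels are relative to the other transcripts. Of 22625 probe sets, 77 controls were left out. Symbols came from the platform annotation, with all 73 members found in the WBcel235 gene table. The genome build behind the array is not given in the sources used here.

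The test was limma 3.58.1 under R 4.3.3 (group as the only term, lmFit and eBayes, two-sided), with Benjamini-Hochberg adjustment over 22548 probe sets. Each probe set left 4 residual degrees of freedom, to which the moderation added 3.39. It was tested on simulated data, in which probe sets varied independently and with the same SD in both groups. The sperm genes varied together and more widely in the Au-NP arrays, so the simulation does not cover their case. Intervals are 95% intervals of the limma fit to the measured arrays, and the number of arrays limits precision. Between 4 and 15 values were identical in any 2 arrays, so no array was a copy of another. Each array was counted as its own sample, but this check cannot show that the dishes were independent.

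Members, lists and tests were chosen with earlier results of these data known. The rule for names took gsp-3, gsp-4, the listed spe and fer genes, and in each of the msp, ssp, ssq and nspd families the 3 smallest p, the highest and lowest mean and the largest difference in each direction, besides up to 3 genes per other list. Some genes with known roles in sperm were not analysed here. Of the genes in the other lists, 4 symbols were unmatched (spch-2, spch-3, trp-3 and vit-3). Other lists were other spermatogenesis genes, MSP signalling, sex determination, germ line, oocyte and eggshell, yolk proteins, moulting, intestine, body-wall muscle, hypodermis, neurons and somatic gonad. Protein and promoter sequences were not used here, so the planned comparison of MSP proteins and promoter motifs was not made. Figures were drawn with matplotlib 3.10.9.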

Additional observations from a re-analysis of the deposited data

How the results depend on the processing

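Counts of sperm genes past the threshold stayed at 0 higher and 0 lower with the replicate number as a block, after a second quantile normalization, after median centring, among the 46 members above the median level, with trend and robust variances, among the 32 members without probe sets of possible cross-hybridization, with probe sets averaged per gene and after correction for gene span. Leaving out 1 array gave 0 to 10 higher and 0 to 1 lower, with 10 and 1 without Au-NP replicate 3 and 0 and 0 without each other array. The median difference then ranged from -0.14 to 0.21. With Au-NP replicate 3 alone against the controls, 0 genes were higher and 11 lower, and the median was -0.56. Array weights gave 0 higher and 1 lower, and so did an adjusted p threshold of 0.10, the gene being ssq-2 each time. With the replicate block the limma adjusted p of ssq-2 was 0.0635. Deviations of same-numbered arrays correlated at -0.335, 0.431 and 0.221 across probe sets, and 2 of 6 arrays correlated best with their own number, so the numbers were not taken to pair the dishes. Among named genes and family medians, 796 of the alternative values kept their side of the threshold or stayed within the spread between arrays, 15 passed the threshold and 6 moved further. The cause of these changes was not tested. Signals near the lowest value limit the dim spe genes.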
